A study of Mus musculus with 6 samples.

Results

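The transcripts of 10 genes that import L-arginine, split it, oxidise it, rebuild it or turn its product into polyamines were followed in M2 macrophages (Mφs) after a tRNA fragment had been targeted. The genes Slc7a1, Slc7a2, Arg1, Arg2, Nos2, Ass1, Asl, Odc1, Srm and Sat1 were taken by their symbols from a table of 41549 genes. All 10 had a row, and all 10 passed the filter on low counts, which kept 11933 genes. The cells came from wild-type C57Bl/6N mice: bone marrow precursors were differentiated with M-CSF, transfected while unpolarized (M0) and then polarized to M2 by IL-4 plus IL-13. In the αGlu group the cells received an LNA-modified antisense inhibitor of 5′tRF-Glu(CTC), which derives from the 5′ part of the tRNA for glutamate, and in the Ctr group a control inhibitor. Each group had 3 libraries of stranded mRNA, numbered in the labels and described by the study as independent experiments, and both groups shared the M-CSF, the transfection step and the polarizing cytokines. The fragment itself was not measured by these libraries, so they hold no check of its inhibition.

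Arginine enters Mφs mainly through cationic amino acid transporters of the SLC7 family. Inside the cell arginases split it into urea and ornithine, whereas inducible nitric oxide synthase turns it into nitric oxide and citrulline, and the competition between these enzymes for the same substrate is a textbook distinction between Mφ states, with Arg1 named for IL-4-activated and Nos2 for LPS- and IFN-γ-activated cells. Argininosuccinate synthase and lyase rebuild arginine from citrulline. Ornithine decarboxylase opens the way from ornithine to the polyamines, which spermidine synthase extends and spermidine/spermine N1-acetyltransferase marks for breakdown or export.

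The designed oligonucleotide and its listed target sequence within the fragment are given because they define the comparison. In the target, capitals mark bases 2 to 21, which pair with the inhibitor, and both are written 5′ to 3′ as DNA letters.
Inhibitor against 5′tRF-Glu(CTC): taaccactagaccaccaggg
Target within 5′tRF-Glu(CTC): tCCCTGGTGGTCTAGTGGTTA
The annotated transcripts of the 10 genes were searched for stretches of at least 8 bases that could pair with the inhibitor without a gap or mismatch. The longest had 11 bases and lay in Odc1, and 1.01% of the tested genes had a stretch at least as long. It is shown with its neighbouring bases, with the paired part in capitals, and corresponds to bases 10 to 20 of the target.
Odc1, bases 267 to 277 of a retained-intron transcript: ctgtggactGTCTAGTGGTTggtcatgcc
This stretch was found in 1 of 8 annotated Odc1 transcripts, and that transcript has no coding sequence. In Ass1 the longest stretch had 9 bases, a length reached by 19.7% of the tested genes, and in Arg2, Nos2, Slc7a1 and Slc7a2 it had 8 bases, a length reached by 56.8%. None of 8 bases or more was found in Arg1, Asl, Srm or Sat1. A match of this kind is a description of letters and not of binding.

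Total exon counts ranged from 17912831 to 30386653 reads per library, and 1 read corresponded to between 0.0315 and 0.0574 CPM (reads scaled to a common library size), so that each of the 10 genes was counted well above this limit. The 3 αGlu libraries did not behave alike. A list of 12 genes of the LPS/IFN-γ response summed to between 29.0 and 52.8 CPM in Ctr, to 323 CPM in αGlu 1, and to 15950 and 14878 CPM in αGlu 2 and 3. Most of each αGlu sum came from 1 gene. This was Ccl5 in αGlu 1, at 274 CPM, and Saa3 in αGlu 2 and 3, at 13511 and 12423 CPM. Of the IL-4/IL-13 markers, Mrc1 (the mannose receptor) was at 771 CPM or more and Chil3 at 1479 CPM or more in all 6 libraries, whereas Retnla stood at 245 to 540 CPM in Ctr, at 101 CPM in αGlu 1 and at 0.0315 and 0.0367 CPM in αGlu 2 and 3. Il4ra, the IL-4 receptor chain, went the other way, from 61.1 to 66.3 CPM in Ctr to 78.2, 510 and 643 CPM in αGlu. Of the 14 tested genes of that list 4 were higher and 2 lower in αGlu at an unadjusted p below 0.05. Cd209d was at 0 in all 6 libraries and Ccl17 stayed under 1 CPM. Csf1r, which marks Mφs, was at 2400 CPM or more everywhere. Others of the 8 listed Mφ markers differed in αGlu 2 and 3. Cd68 was at 1809 to 2063 CPM in Ctr and 1990, 1237 and 1145 CPM in αGlu 1, 2 and 3. Itgam was at 425 to 534 CPM in Ctr and 324, 1035 and 1305 CPM in αGlu. Cd14 was at 17.3 to 30.1 CPM in Ctr and 12.4, 293 and 240 CPM in αGlu. The 10 neutrophil genes summed to between 107 and 160 CPM in Ctr and to 186, 539 and 609 CPM in αGlu 1, 2 and 3, nearly all of it from Csf3r, whereas Ly6g and Retnlg had no read in any library. The summed lymphocyte and erythroid lists stayed at or below 0.346 CPM, the dendritic and stromal lists at or below 7.18 CPM, and the mast cell, basophil or eosinophil list between 11.5 and 26.6 CPM. In bulk libraries a smaller share of cells carrying a transcript and less of it per cell cannot be told apart.

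The comparison of αGlu with Ctr asked which transcripts differed once the fragment had been targeted in M2-polarized Mφs. Calls required an adjusted p below 0.1 together with more than 1 log2 unit of difference. By edgeR's quasi-likelihood test with Benjamini-Hochberg adjustment 0 of the 10 genes were called, as were 0% of the 11933 genes tested. An unadjusted p below 0.05 was reached by 7 of the 10, 6 of them higher and 1 lower in αGlu, and by 24.7% of all tested genes (12.7% higher, 11.9% lower). DESeq2 called 5 of the 10 (Arg1, Arg2, Nos2, Ass1 and Slc7a2, all higher), against 8.16% of 13707 genes (4.23% higher, 3.93% lower), and limma-voom called 0, with 26% of its genes at an unadjusted p below 0.05. Without αGlu 1, which left 2 libraries against 3, edgeR called 6 of the 10, with the same 5 higher and Sat1 lower, against 18.6% of 12340 genes (8.05% higher, 10.5% lower). Leaving out any 1 of the remaining 5 libraries gave a call for none of the 10, and the edgeR adjusted p of Arg1 was then 0.291 to 0.427. For Arg1, Arg2, Nos2, Ass1 and Slc7a2, αGlu 1 lay among or next to the Ctr libraries. Values without αGlu 1 therefore describe αGlu 2 and 3 and are not separate support. The median log2 fold change was 0.97 over the 10 genes and 0.02 over all tested genes. The genes were chosen with earlier results of these data known, so these counts describe them and nothing more.

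**Figure D1:**
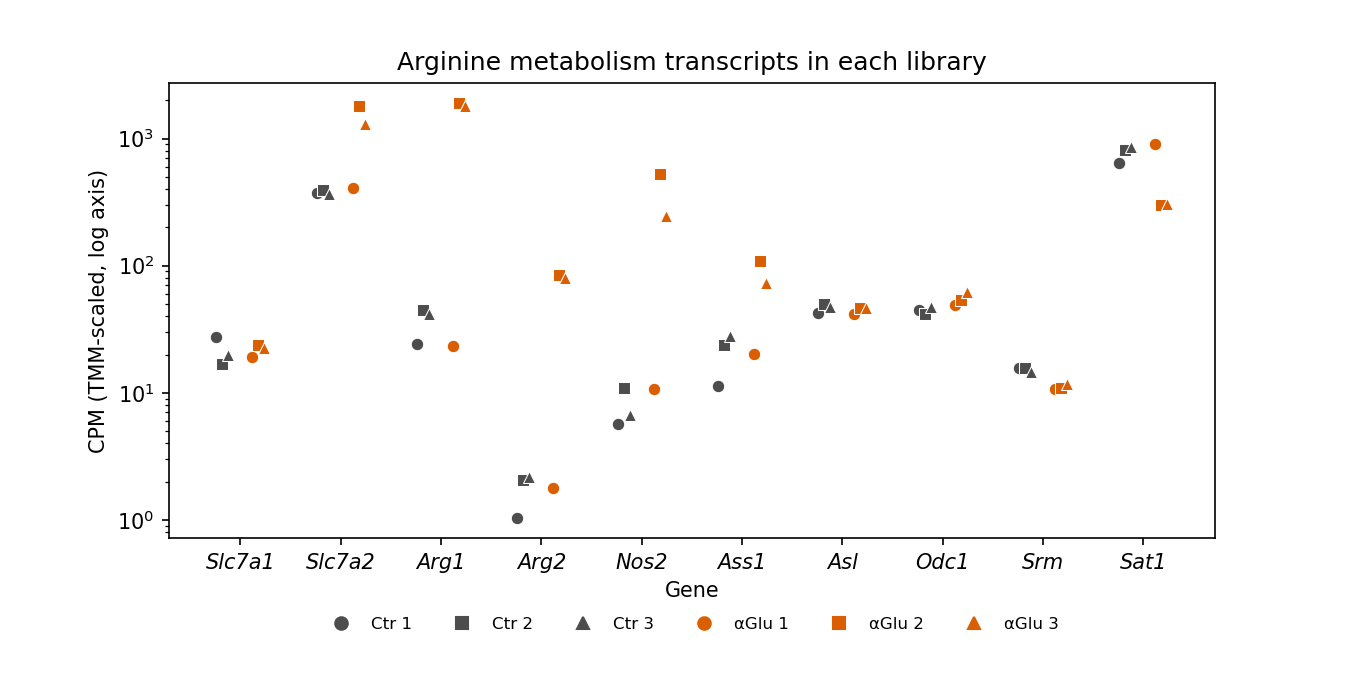
Level of each of the 10 transcripts in each library, in CPM scaled by TMM factors on a log axis, with Ctr in grey, αGlu in orange and a symbol for each replicate number. For Arg1, Arg2, Nos2, Ass1 and Slc7a2 the αGlu 2 and αGlu 3 points lie above all other points and αGlu 1 lies among or next to the Ctr points, and for Sat1 αGlu 2 and 3 lie below.

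In the Ctr cells the order of the transcripts, compared as TPM, which scales reads by gene length and by library, ran from Sat1 to Arg2. Sat1 averaged 838 ± 109 TPM (SD, n = 3) and Slc7a2 125 ± 3.98 TPM, and neither overlapped with its neighbour in the order. Arg1 followed with 49.9 ± 14.3 TPM and overlapped with Odc1 at 39.5 ± 2.90 TPM. Asl, Srm and Ass1 formed the next step at 29.0, 28.8 and 26.2 TPM and could not be separated beyond their spread. Slc7a1, Nos2 and Arg2 closed the order at 5.65, 5.28 and 3.70 TPM, again with overlapping ranges. Among all 41549 genes Arg1 held rank 3576, 2157 and 2317 by TPM in Ctr 1, 2 and 3.

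Of the transporters, Slc7a2 was higher in αGlu 2 and 3, and Slc7a1 stayed within the spread of the Ctr libraries. Slc7a2 encodes the inducible cationic transporter CAT2, and was at 373, 395 and 369 CPM in Ctr 1, 2 and 3, compared with 411, 1796 and 1307 CPM in αGlu 1, 2 and 3. The lowest αGlu library lay just above the highest Ctr library, so the groups did not overlap, and αGlu 2 and 3 were 4.74 and 3.45 times the Ctr mean where αGlu 1 was 1.09 times. The log2 fold change was 1.63 ± 0.51 (SE), with an edgeR adjusted p of 0.162 and a DESeq2 adjusted p of 0.0154. Without αGlu 1 it was 2.03 ± 0.14, with an edgeR adjusted p of 0.000186. Slc7a1 encodes the widely expressed transporter CAT1, and was at 27.7, 16.97 and 20 CPM in Ctr, compared with 19.04, 23.9 and 22.6 CPM in αGlu. All 3 αGlu values fell inside the Ctr range. Its log2 fold change of 0.02 ± 0.20 (edgeR adjusted p = 0.954) changed sign with the library left out, between -0.13 without Ctr 2 and 0.25 without Ctr 1.

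Both arginase transcripts were far higher in αGlu 2 and 3 than in any other library. Arg1, the cytosolic arginase of the urea cycle and of IL-4-activated Mφs, was at 24.3, 45.2 and 41.5 CPM in Ctr, compared with 23.5, 1886 and 1792 CPM in αGlu. In αGlu 1 it was slightly below the lowest Ctr library, so the groups overlapped. In αGlu 2 and 3 it was 51.0 and 48.4 times the Ctr mean, at rank 35 and 37 by TPM among all 41549 genes. Its log2 fold change was 5.06 ± 1.46 (edgeR adjusted p = 0.159, DESeq2 adjusted p = 0.00475), and 5.63 ± 0.28 without αGlu 1 (edgeR adjusted p = 4.99e-05). By limma-voom it was 3.25 (adjusted p = 0.227). Arg2, the mitochondrial arginase, started from a low level of 1.04, 2.05 and 2.18 CPM in Ctr and reached 1.78, 84.4 and 80.3 CPM in αGlu. These are 23 to 49 reads per Ctr library, 31 in αGlu 1, and 2681 and 2189 in αGlu 2 and 3, so that the Ctr level carries a larger counting error than that of Arg1. For Arg2 the log2 fold change was 4.98 ± 1.33 (edgeR adjusted p = 0.157, DESeq2 adjusted p = 0.00295), and 5.54 ± 0.22 without αGlu 1 (edgeR adjusted p = 2.61e-05), while limma-voom gave 4.04 (adjusted p = 0.408).

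Nos2, the inducible nitric oxide synthase and the transcript usually set against Arg1, was higher in the same libraries. It was at 5.68, 10.99 and 6.73 CPM in Ctr, compared with 10.7, 531 and 245 CPM in αGlu. The αGlu 1 value lay just under the highest Ctr value, and αGlu 2 and 3 were 68.0 and 31.4 times the Ctr mean. Unlike Arg1, for which αGlu 2 and 3 differed 1.05 times, Nos2 was 2.17 times as high in αGlu 2 as in αGlu 3. On the log2 scale Nos2 differed by 5.07 ± 1.32 (edgeR adjusted p = 0.156, DESeq2 adjusted p = 0.0018), and 5.63 ± 0.43 without αGlu 1 (edgeR adjusted p = 0.000232). It was 3.59 by limma-voom (adjusted p = 0.25) and 4.04 without αGlu 2 (edgeR adjusted p = 0.425). The LPS/IFN-γ list as a sum was also highest in αGlu 2 and 3. All 10 of its tested genes stood at an unadjusted edgeR p below 0.05 and higher in αGlu, against 24.7% of all tested genes (12.7% higher). The list was chosen with earlier results of these data known. In αGlu 1 its summed level was above Ctr, with Ccl5 at 274 CPM against 3.59 to 13.5 CPM in Ctr, where Arg1, Arg2 and Nos2 were 0.634, 1.01 and 1.38 times the Ctr mean. Other genes of the list stayed low in αGlu 1, such as Il1b, at 0.278 to 0.454 CPM in Ctr, 0.0574 CPM in αGlu 1 and 322 and 345 CPM in αGlu 2 and 3. The part of this list in the result was not tested.

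In the citrulline cycle the synthase was higher in αGlu 2 and 3, and the lyase varied little. Ass1, argininosuccinate synthase, was at 11.4, 23.6 and 28.2 CPM in Ctr, compared with 20.02, 108 and 72.5 CPM in αGlu. Ctr 1 was the lowest of the 6 libraries, αGlu 1 lay within the Ctr range, and αGlu 2 and 3 were 5.13 and 3.45 times the Ctr mean. On the log2 scale the difference was 1.67 ± 0.64 (edgeR adjusted p = 0.19, DESeq2 adjusted p = 0.056), and 2.10 ± 0.36 without αGlu 1 (edgeR adjusted p = 0.00524). Asl, argininosuccinate lyase, was at 42.2, 50.2 and 47.0 CPM in Ctr, compared with 41.5, 46.8 and 46.6 CPM in αGlu. The highest of the 6 values was 1.21 times the lowest, and the log2 fold change of -0.05 ± 0.09 (edgeR adjusted p = 0.763) turned to 0.04 when libraries were scaled by their size alone. Asl was also at 0.00 ± 0.09 without αGlu 1 (edgeR adjusted p = 0.985), so it did not share the split between αGlu 1 and the other αGlu libraries.

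The 2 synthetic polyamine genes differed by less, in opposite directions. Odc1, the rate-limiting ornithine decarboxylase, was at 44.7, 41.5 and 47.7 CPM in Ctr, compared with 49.4, 54.0 and 62.0 CPM in αGlu. Every αGlu library lay above every Ctr library, by a log2 fold change of 0.31 ± 0.11 (edgeR adjusted p = 0.175) that stayed below the limit of 1 in each alternative. Srm, spermidine synthase, was at 15.6, 15.7 and 14.5 CPM in Ctr, compared with 10.8, 10.96 and 11.8 CPM in αGlu. Here too the groups did not overlap, in the opposite direction, and αGlu 1 was as low as αGlu 2 and 3, with 0.705, 0.717 and 0.773 times the Ctr mean. The log2 fold change of -0.45 ± 0.09 had the smallest unadjusted p of the 10 genes (edgeR adjusted p = 0.149, DESeq2 adjusted p = 0.00986) and was -0.43 ± 0.10 without αGlu 1 (edgeR adjusted p = 0.0137).

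Sat1, the rate-limiting acetyltransferase of polyamine breakdown, was the most abundant of the 10 in Ctr and was lower in αGlu 2 and 3. It was at 646, 810 and 861 CPM in Ctr, compared with 898, 301 and 305 CPM in αGlu. The αGlu 1 value was the highest of all 6 libraries, and αGlu 2 and 3 were 0.390 and 0.395 times the Ctr mean. Sat1 had a log2 fold change of -0.62 ± 0.47 with an edgeR adjusted p of 0.409, and of -1.35 ± 0.14 without αGlu 1 (edgeR adjusted p = 0.000801).

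**Figure D2:**
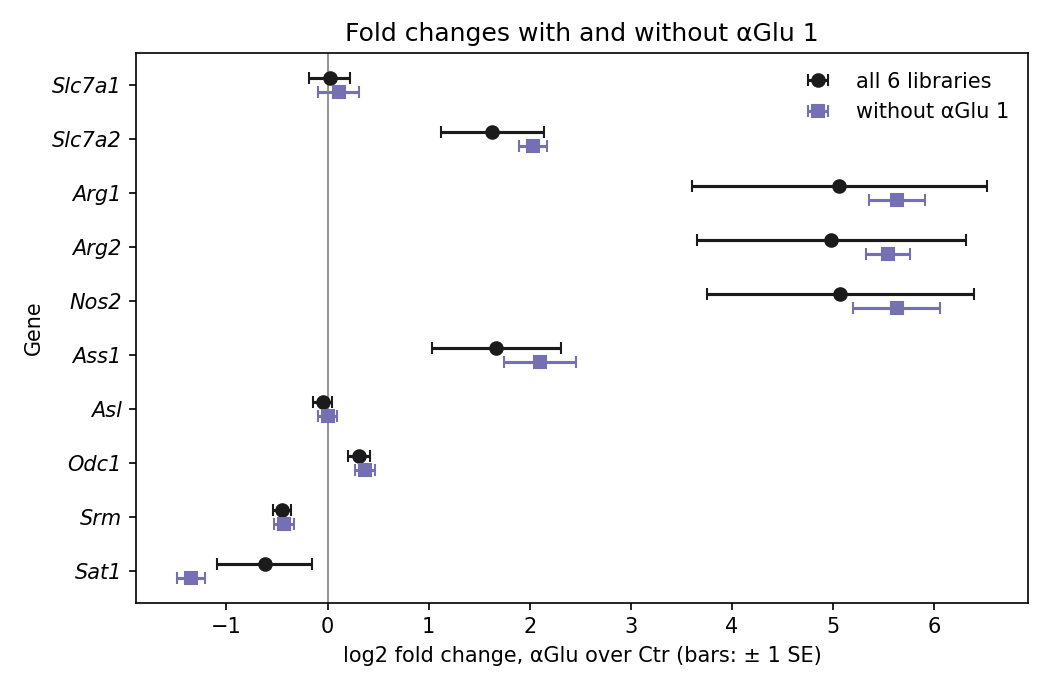
Log2 fold change of αGlu over Ctr for each of the 10 genes, as circles from all 6 libraries and as squares without αGlu 1, with bars of ± 1 SE from the edgeR fit. Arg1, Arg2 and Nos2 sit between 4.98 and 5.07 with SEs of 1.32 to 1.46 in all 6 libraries, and the SEs narrow to 0.22 to 0.43 without αGlu 1.

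Counted by overlap alone, 3 of the 10 genes had groups that did not overlap, Slc7a2 and Odc1 higher and Srm lower, against 30.2% of all tested genes (14.2% higher, 15.9% lower), which is about the same share. Without αGlu 1 there were 8 of 10, with Arg1, Arg2, Nos2, Ass1 and Sat1 added, against 65.8% of all tested genes. The dispersion shared by all genes was 0.069 with 6 libraries and 0.0203 without αGlu 1.

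Ratios between steps of the pathway, taken within a library on the TPM scale, set these steps against each other. Arg1 was 12.2 to 14.9 times Arg2 in Ctr and 14.3 times in both αGlu 2 and αGlu 3, while it was 8.46 times in αGlu 1. Arg1 was 8.19 to 12.3 times Nos2 in Ctr and 4.36, 7.08 and 14.6 times in αGlu 1, 2 and 3. The balance of the arginase against the synthase transcript in αGlu therefore spanned both sides of the Ctr range, although each transcript was more than 30 times the Ctr mean in αGlu 2 and 3. Slc7a2 exceeded Slc7a1 17.02 to 29.3 times in Ctr and 27.3 times in αGlu 1, and 94.9 and 73.1 times in αGlu 2 and 3. Asl was 0.833 to 1.86 times Ass1 in Ctr, 1.04 times in αGlu 1, and 0.217 and 0.321 times in αGlu 2 and 3. Both pairs thus shifted in αGlu 2 and 3 and not in αGlu 1. Sat1 was 17.7 to 23.97 times Odc1 in Ctr, 22.3 times in αGlu 1, and 6.84 and 6.04 times in αGlu 2 and 3. Odc1 against Srm was the exception, with 1.24 to 1.54 in Ctr and 2.15, 2.32 and 2.46 in αGlu 1, 2 and 3, so that αGlu 1 sided with the other αGlu libraries. No test was run on these ratios.

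**Figure D3:**
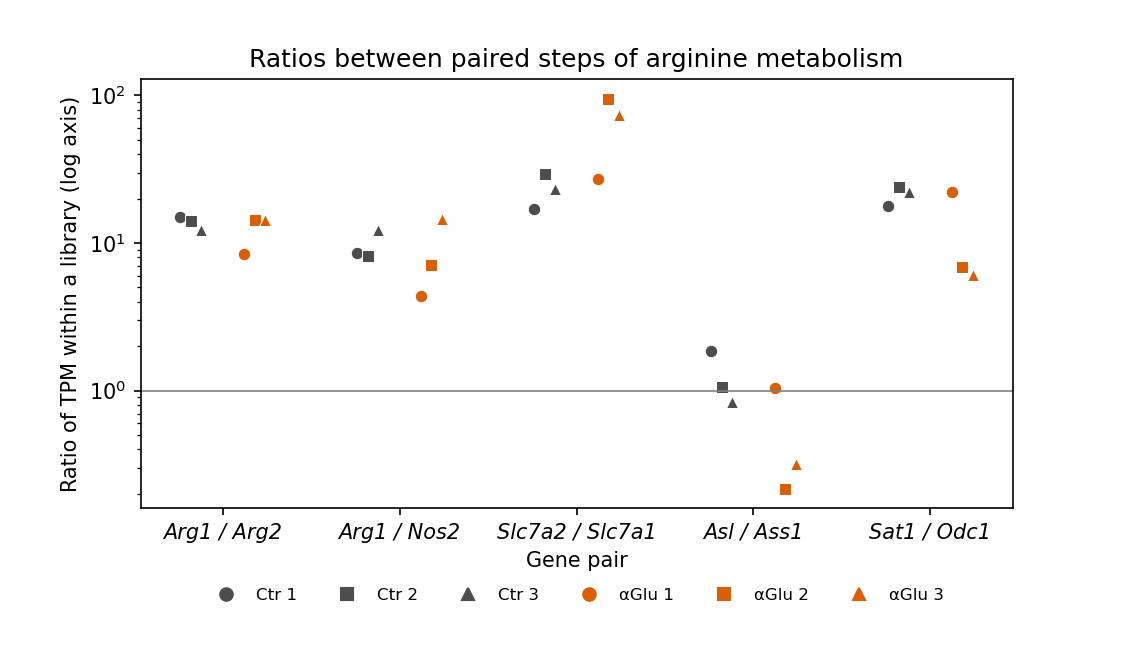
Ratio of TPM between 2 genes within each library, on a log axis with a line at 1, for 5 gene pairs, with Ctr in grey and αGlu in orange. Arg1 over Arg2 stays at 12.2 to 14.9 in all libraries but αGlu 1, whereas the other pairs apart from Arg1 over Nos2 place αGlu 2 and 3 outside the other 4 libraries.

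The rest of the pathway was read from 6 lists of 67 further genes, of which 62 had a row and 50 were tested. By edgeR 0 of the 50 were called, and 18 stood at an unadjusted p under 0.05 (7 higher, 11 lower). DESeq2 called 2 (Azin2 higher, Gamt lower), or 4% against 7.91% of the 11933 tested genes. Without αGlu 1 edgeR called 6 (Slc7a6, Azin2, Ddah2 and Castor1 higher, Qdpr and Gamt lower), or 12% against 16.9% of the 11933. The share at an unadjusted p below 0.05 was 36% against 24.7%. Their median log2 fold change was 0.01, beside 0.02 over all tested genes. The entry enzymes of the hepatic urea cycle Cps1, Otc and Nags, the synthases Nos1 and Nos3, and Agmat were at or near 0 in every library, with no value above 0.147 CPM.

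Among other carriers of arginine and ornithine, Slc25a15, the mitochondrial ornithine carrier, was at 5.95, 5.77 and 7.61 CPM in Ctr, compared with 8.03, 11.4 and 10.8 CPM in αGlu without overlap (edgeR adjusted p = 0.159). Slc7a6, a y+L transporter, was at 12.4 to 14.9 CPM in Ctr, at 13.7 CPM in αGlu 1 and at 28.9 and 29.9 CPM in αGlu 2 and 3. The log2 fold change of Slc7a6 was 0.87 ± 0.30 (edgeR adjusted p = 0.174) and 1.15 without αGlu 1 (edgeR adjusted p = 0.000478). Its partner chain Slc3a2 was abundant at 363 to 462 CPM with overlapping groups. Around the nitric oxide synthase cofactor tetrahydrobiopterin, Qdpr, which regenerates it, was at 118, 107 and 113 CPM in Ctr, compared with 89.6, 47.7 and 51.1 CPM in αGlu. All 3 αGlu values of Qdpr were below Ctr, with a log2 fold change of -0.84 ± 0.25 (edgeR adjusted p = 0.16) and of -1.19 without αGlu 1 (edgeR adjusted p = 0.000188), whereas Gch1, the first enzyme of its synthesis, overlapped between groups at 25.9 to 44.4 CPM.

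On the branch from ornithine to proline and glutamate, Oat, ornithine aminotransferase, was at 73.6 to 85.4 CPM in Ctr, compared with 63.3 to 68.8 CPM in αGlu, and Aldh4a1 was at 19.2 to 22.5 CPM in Ctr, compared with 12.7 to 16.4 CPM in αGlu. Neither overlapped, and the log2 fold changes were -0.24 ± 0.09 and -0.58 ± 0.13 (edgeR adjusted p = 0.18 and 0.156). Glul, glutamine synthetase, overlapped at 98.4 to 174 CPM. In polyamine synthesis Azin2, an antizyme inhibitor that spares ornithine decarboxylase, was at 2.18, 2.80 and 3.39 CPM in Ctr, compared with 3.15, 22.3 and 25.5 CPM in αGlu. Its log2 fold change of 2.61 ± 0.74 (edgeR adjusted p = 0.159, DESeq2 adjusted p = 0.0047) was 3.09 without αGlu 1 (edgeR adjusted p = 7.26e-05). Amd1, which supplies the aminopropyl donor, the antizyme Oaz1 and Eif5a, the factor modified with spermidine, were all lower in αGlu without overlap, by log2 fold changes of -0.42, -0.21 and -0.41 (edgeR adjusted p = 0.161, 0.212 and 0.181).

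For polyamine breakdown and transport, Paox and Atp13a2 were higher without overlap in αGlu. Paox, a polyamine oxidase, was at 22.7 to 27.6 CPM in Ctr and 31.7 to 33.4 CPM in αGlu, and Atp13a2, a lysosomal polyamine exporter, at 274 to 319 CPM in Ctr and 362 to 398 CPM in αGlu. For both genes αGlu 1 stood with αGlu 2 and 3, at log2 fold changes of 0.40 ± 0.10 and 0.35 ± 0.11 (edgeR adjusted p = 0.156 and 0.16). Of the other uses of arginine, Gamt, the last enzyme of creatine synthesis, was at 6.77, 6.60 and 5.99 CPM in Ctr, compared with 3.27, 2.24 and 3.01 CPM in αGlu. Its log2 fold change of -1.19 ± 0.19 (edgeR adjusted p = 0.149, DESeq2 adjusted p = 4.67e-05) was likewise shared by all 3 αGlu libraries and was -1.31 without αGlu 1 (edgeR adjusted p = 0.00311). Gatm, the enzyme before it, overlapped at 101 to 144 CPM, as did Rars, the arginyl-tRNA synthetase, at 131 to 221 CPM. Prmt5, which methylates arginine in proteins, was at 29.3 to 33.5 CPM in Ctr and 36.7 to 43.5 CPM in αGlu (edgeR adjusted p = 0.156).

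**Figure D4:**
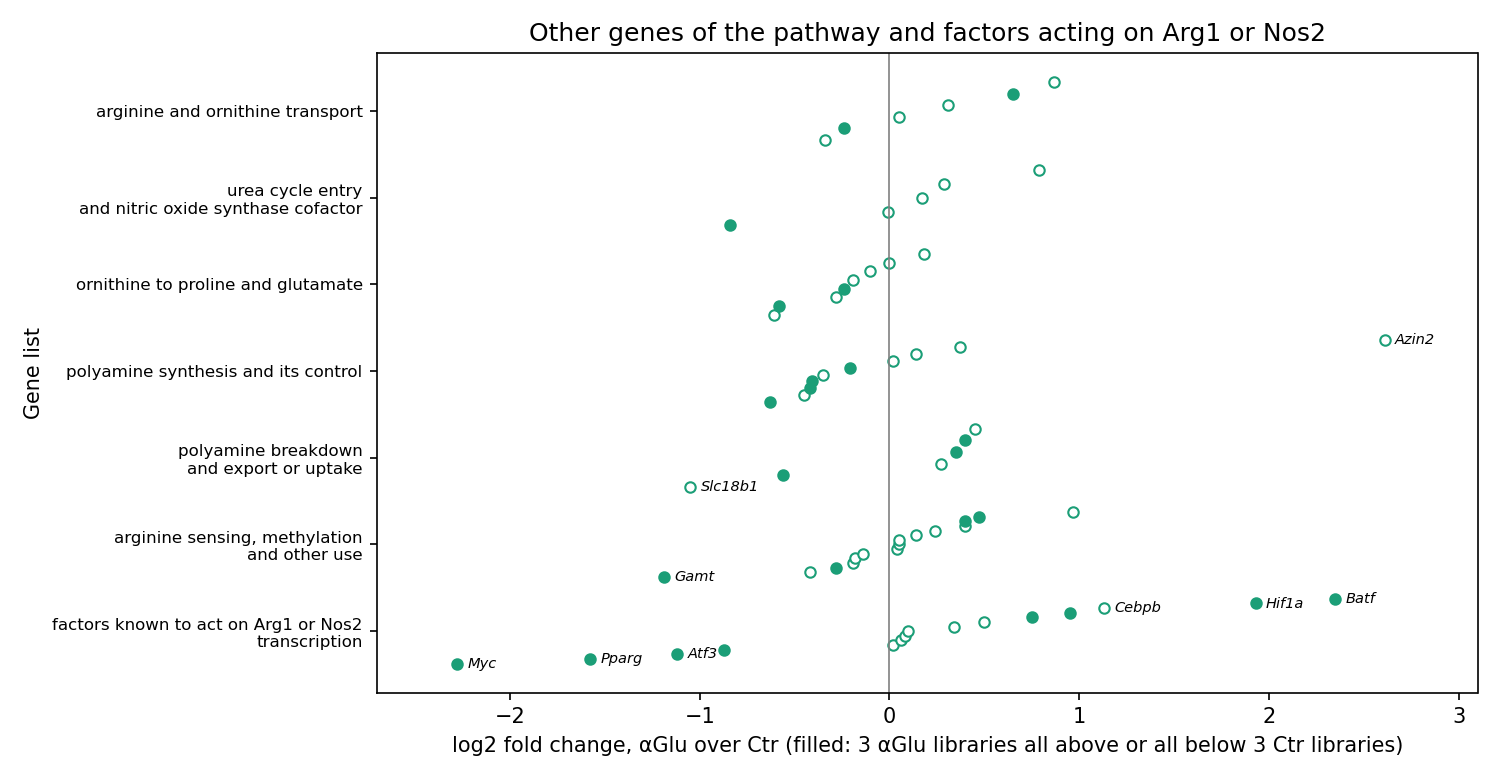
Log2 fold change of αGlu over Ctr in all 6 libraries for the tested genes of 6 pathway lists and 1 list of transcription factors, with filled points where the groups do not overlap and names given where the change exceeds 1 in size. Most pathway genes lie within 1 of zero, Azin2 stands at 2.61 and Gamt at -1.19, and the factors range from Myc at -2.28 to Batf at 2.35.

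Of 15 transcription factors known to act on Arg1 or Nos2, edgeR called 0, with 8 (53.3% against 24.7% of all tested genes) at an unadjusted p below 0.05. DESeq2 called 5 (33.3% against 7.91% of all tested genes). The groups did not overlap for 8 of the 15 (4 higher, 4 lower), or 53.3% against 30.2% of all tested genes. Without αGlu 1 edgeR called 8 (53.3% against 16.9%), 4 higher and 4 lower, among them Batf, Hif1a and Cebpb higher and Klf4, Pparg, Atf3 and Myc lower. This list, like the pathway lists, was chosen with earlier results of these data known, so these shares describe it and nothing more. Stat6, which carries the IL-4 signal, differed little, at 256 to 278 CPM in Ctr and 257 to 279 CPM in αGlu. Irf1 overlapped, with its highest value of 393 CPM in αGlu 1. Batf was at 3.90 to 5.27 CPM in Ctr, 6.19 CPM in αGlu 1, and 30.9 and 34.4 CPM in αGlu 2 and 3 (2.35 ± 0.62 on the log2 scale, edgeR adjusted p = 0.157, DESeq2 adjusted p = 0.00291), and its log2 fold change was 2.79 without αGlu 1 (edgeR adjusted p = 4.8e-05). Pparg, the lipid-sensing factor of IL-4-activated Mφs, was at 201, 217 and 201 CPM in Ctr, 183 CPM in αGlu 1, and 13 and 12.4 CPM in αGlu 2 and 3. Pparg differed on the log2 scale by -1.58 ± 1.08 (edgeR adjusted p = 0.373) and -4.03 without αGlu 1 (edgeR adjusted p = 7.38e-06). Klf4 and Atf3 were lower without overlap, with log2 fold changes of -0.87 ± 0.22 and -1.12 ± 0.40 (edgeR adjusted p = 0.156 and 0.178) that became -1.13 and -1.69 without αGlu 1 (edgeR adjusted p = 0.000713 and 0.000666), and Atf4 overlapped at 171 to 263 CPM. Outside the naming rule, and chosen after their values were seen, Hif1a was at 82.8 to 87.7 CPM in Ctr, compared with 94.6, 437 and 442 CPM in αGlu, and Myc, which is known to act on Odc1 as well, at 23.03 to 30.2 CPM in Ctr, compared with 12.8, 1.79 and 2.31 CPM in αGlu.

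Promoter sequences from RefSeq on GRCm38.p6, from 250 bases before to 50 after the start, were matched for 4 of the 10 genes (Slc7a1, Ass1, Odc1 and Sat1). The E-box CACGTG, which MYC and related factors recognise, was searched on both strands and occurred once, in the Ass1 promoter 36 bases before the start, where 7.15% of 32851 promoters hold it. The GC box GGGCGG occurred in 1 promoter of each of the 4 genes, with 4 matches in Odc1, beside 35.7% of all promoters. TTCNNNGAA and TATAAA, held by 8.3% and 13.6% of all promoters, each had 1 match, in the second of 2 Slc7a1 promoters, and the STAT6 motif (6.95%), TGATGNAA (3.97%) and the NF-κB motif (8.46%) had none, all on both strands. These matches are descriptions of letters and not of binding.

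Across the 6 libraries the log2 CPM of Arg1 correlated with those of Arg2, Nos2 and Slc7a2 at Pearson's r of 0.996, 0.98 and 0.98, and with that of Sat1 at -0.959. Since αGlu 2 and 3 stood apart from the other 4 libraries for all of these genes, the coefficients mainly describe that split. The comparison took in 8416 tested genes whose mean log2 CPM was 3 or more, and those most like Arg1 were Hcls1, Rnf157, Ankrd10, Pirb and Slc16a3, at r of 0.9990 to 0.9969. Slc16a3, a lactate exporter, was at 10.9, 12.8 and 11.5 CPM in Ctr, compared with 9.69, 163 and 145 CPM in αGlu, whereas Ankrd10 moved only from 20.3 to 20.98 CPM in Ctr to 28.1 CPM at most in αGlu. The genes most like Nos2 were Sipa1l1, Ube2z, Chchd1, Pfkfb3 and Cxcr4, at r of 0.9989 to 0.9978. Pfkfb3, an enzyme that promotes glycolysis, was at 54.3, 64.2 and 60.7 CPM in Ctr, compared with 66.5, 207 and 161 CPM in αGlu, and like Nos2 was higher in αGlu 2 than in αGlu 3. As many as 618 genes reached an r above 0.95 with Arg1 and 589 with Nos2, so such likeness was common.

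On GRCm38, the build in the submitters' processing notes, GENCODE M21 places Arg1 at chr10:24915221-24927484 on the minus strand, Arg2 at chr12:79130777-79156301 on the plus strand and Nos2 at chr11:78920787-78960254 on the plus strand. The transporters lie at chr8:40862396-40922308 (Slc7a2, plus strand) and chr5:148327410-148399904 (Slc7a1, minus strand). Ass1 lies at chr2:31470207-31520672 (plus strand) and Asl at chr5:130011258-130029247 (minus strand). Of the polyamine genes, Odc1 lies at chr12:17544794-17551505 (plus strand), Srm at chr4:148591503-148594993 (plus strand) and Sat1 at chrX:155213132-155216449 (minus strand). Exons of Arg2 overlap those of Vti1b and Gm48780 on the other strand, and exons of Slc7a2 overlap the lincRNA Gm26584. The sources used here do not say whether reads were counted by strand, and for these 2 genes a share from the partner is uncertain. No pair of the 10 genes shared a run of 50 bases. Ass1 shared 38.6% of its 50-base windows with the pseudogene Gm5424, and Odc1 up to 11.7% with a processed pseudogene. Srm and Sat1 shared up to 2.01% and 2.55%, and Slc7a1 and Slc7a2 shared windows with 258 and 113 other genes, none of them holding more than 0.0605% and 0.241% of the windows. The levels of these 6 transcripts carry an uncertainty from reads that fit more than 1 copy.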

How the data were processed

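Libraries of stranded mRNA from 3 Ctr and 3 αGlu cultures were processed by the authors (QIAGEN RNA-seq Analysis Portal). The authors deposited exon counts without normalization, RPKM, TPM and a CPM signal scaled to an effective library size. Not given in the sources used here were the aligner, the annotation and how multiply mapping reads were counted. All tests used the deposited counts. The deposited TPM served to compare genes within a library, and the deposited RPKM only to derive exon lengths. The deposited CPM signal was not used, and CPM was recomputed from counts with TMM factors (0.951 to 1.07). 1 row without a gene name was left out.

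Genes were filtered with filterByExpr (minimum count 10, minimum total 15) and fitted by group with the quasi-likelihood test of edgeR 4.0.16 in R 4.3.3, two-sided, with Benjamini-Hochberg adjustment over 11933 genes. Each SE was the fold change divided by the root of its F value. Alternatives were DESeq2 1.42.0, limma-voom (limma 3.58.1), RLE factors, library size alone, no filter, CPM above 1 in 3 libraries, an adjusted p under 0.05, no fold limit, the replicate number as a block, and each library left out. The 10 genes, the lists and the alternatives were chosen with earlier results of these data known. Named besides the 10 were, from each pathway and factor list, the 2 tested genes with the smallest unadjusted p and those above 100 TPM in every library of a group, the 5 genes most like Arg1 and Nos2, and defining markers at or near 0 or highest. Some further markers, among them Mgl2, Ccl22, Cxcl9, Cd68, Cd14 and Itgam, were named outside this rule after their values were seen. The values of 1 gene that this rule named are not reported here. Interval and p-values describe the spread between these libraries. The same-numbered libraries' deviations correlated at 0.076, 0.065 and 0.154, and the numbers were not used to pair them. Positions and shared stretches came from GENCODE M21.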

Additional observations from a re-analysis of the deposited data

How the results depend on the processing

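With edgeR, 0 genes were called by RLE factors, library size alone, either filter or any left-out library but αGlu 1, and 0 by limma-voom, where 3101 genes (2943 by edgeR) had an unadjusted p below 0.05. By DESeq2 1119 genes were called, among them 5 of the 10 arginine genes and 7 of the other pathway genes and factors. Leaving out each library in turn gave 0 to 2290 genes called, 0 to 6 of the 10, 0 to 14 of the other pathway genes and factors, and 3 to 8 of the 10 without overlap, and each highest count came without αGlu 1. The cause was not tested. With the replicate number as a block 17 genes were called and none of the 10, whose adjusted p lay between 0.157 and 0.912, and the log2 fold changes of Arg1, Arg2 and Nos2 were 4.03, 4.29 and 4.15. The deviations of every library correlated best with those of its own number. Of 130 alternative values for single genes of the 10, 112 kept their direction and side of the threshold, 11 passed it (by DESeq2 or without αGlu 1) and 7 changed sign. These were Asl (0.0428 with library size alone, and -0.1 to 0.00703 over left-out libraries, 0.00243 without αGlu 1) and Slc7a1 (-0.13 to 0.25 over left-out libraries). Scaling by library size alone put the median over all genes at 0.1 on the log2 scale. Of the 10 genes, depth limited mainly Arg2, at 23 to 49 reads per Ctr library.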
